A study of Mus musculus with 4 samples.

Results

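Nos2-positive macrophages were the myeloid cells of the inflamed mouse spinal cord that carried transcripts of Nos2, the gene of inducible nitric oxide synthase. They numbered 930 of 26525 cells in 4 single-cell RNA libraries. The cells were chosen by their counts of unique molecular identifiers (UMIs), each of which marks 1 captured RNA molecule. A barcode, which marks 1 droplet, entered with at least 2000 UMIs and under 10% mitochondrial UMIs. The myeloid gate then required at least 10 UMIs of Tyrobp, Fcer1g and Ctss together, at most 2 of the endothelial genes Cldn5, Cdh5, Egfl7 and Esam, at most 1 of the T cell genes Cd3e, Cd3d, Cd3g and Lat, and at most 3 of the microglial genes Tmem119, P2ry12, Olfml3, Siglech and Sall1. Of the 7741 gated cells, those with at least 2 Nos2 UMIs and at most 2 Gpnmb UMIs were taken as Nos2-positive macrophages. Nos2 and Gpnmb were thus measured in the same cells that they chose, so levels in these cells against other gated cells are a description and no test was made on them.

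All mice had experimental autoimmune encephalomyelitis (EAE), a model of multiple sclerosis induced by immunization with a peptide of myelin oligodendrocyte glycoprotein in adjuvant and injection of pertussis toxin. In the blockade pair, C57Bl/6JOlaHsd mice of 15 weeks received the isotype control antibody mIgG1 or a blocking antibody to angiopoietin-2 (Ang2 Ab) from the day of immunization, and cells were taken at 14 days post immunization (dpi). In the overexpression pair, C57Bl/6JCrl mice of 12 to 14 weeks were single transgenic littermates (Ctrl) or EC-Ang2 mice, in which the VE-cadherin promoter drives a doxycycline-repressed activator and thereby an Ang2 transgene in endothelial cells, and cells were taken at 12 dpi. The study's methods place both transgenic lines on a C57BL/6J background, which differs from the strain name given here. Each condition was 1 library of viable CD45+ leukocytes and CD31+ endothelial cells sorted in equal numbers. How many mice were pooled in a library is not given in the sources used here. Each condition having a single library, differences between conditions are given without a test. The 95% intervals are exact binomial or Poisson intervals that cover counting error only. The pairs differed in strain, day and pertussis toxin dose, which cannot be told apart from any difference between libraries of different pairs.

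Macrophages make nitric oxide from arginine with the Nos2 enzyme after they sense microbial products or interferon-gamma, and nitric oxide can damage oligodendrocytes and axons. Inhba encodes the subunit of activin A, a secreted factor of the transforming growth factor beta family. Nos2 lies at chr11:78920787-78960254 on the plus strand and Inhba at chr13:16011851-16031621 on the plus strand (GRCm38, GENCODE annotation).

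The promoter of Inhba is shown because Inhba is the marker given for these cells together with Nos2, and that of Acod1 (Irg1 in the files, the enzyme that makes itaconate) because it is a common partner of Nos2 in activated macrophages. Both are the 250 bases before the RefSeq start site on GRCm38.p6, plus strand, Inhba at chr13:16011601-16011850 and Acod1 at chr14:103046762-103047011. Capitals mark a match to GGGNNNNNCC, a loose form of the site bound by NF-kB.
Inhba: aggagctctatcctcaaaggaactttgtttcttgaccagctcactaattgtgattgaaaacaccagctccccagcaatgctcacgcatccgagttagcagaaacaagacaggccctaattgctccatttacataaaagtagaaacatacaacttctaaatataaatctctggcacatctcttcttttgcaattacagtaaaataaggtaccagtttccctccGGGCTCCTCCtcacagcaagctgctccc
Acod1: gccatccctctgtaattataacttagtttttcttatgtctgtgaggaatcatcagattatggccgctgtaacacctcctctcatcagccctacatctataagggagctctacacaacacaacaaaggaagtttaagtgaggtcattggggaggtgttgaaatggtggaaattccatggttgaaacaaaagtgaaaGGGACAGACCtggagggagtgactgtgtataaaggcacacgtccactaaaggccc
The match began 28 bases before the start of Inhba and 55 bases before that of Acod1. On both strands, 45.8% of 32851 RefSeq promoters of this length held such a match, so its presence is common. Neither window held TTCNNNGAA, a STAT site found in 7.02% of promoters, or GAAANNGAAA, the core of an interferon-stimulated response element found in 2.98%.

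Empty droplets included, the mIgG1, Ang2 Ab, Ctrl and EC-Ang2 libraries had total counts of 66631583, 57954609, 52084739 and 52796061 UMIs. Where 4 values stand without names they follow this order of libraries. The filters on UMIs and mitochondrial content left 6995, 7488, 6627 and 5415 cells in the same order, of which 2199, 2381, 1161 and 2000 passed the myeloid gate. Nos2-positive macrophages numbered 115, 240, 231 and 344. Their median UMI counts were 7165, 6260.5, 7824 and 8708, against 7095, 5468, 6269 and 7020 in the other gated cells. The chosen cells were thus deeper than the others in each library, by least in mIgG1. RNA free in the suspension, estimated from endothelial genes other than those of the gate, made up 3.39% to 3.51% of their UMIs and accounted for 0.202% to 0.517% of their Nos2 UMIs. The gate's limit on endothelial genes can lower this estimate. The cells were chosen for at least 2 Nos2 UMIs, so the low value for Nos2 follows in part from the choice.

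The label was checked against the genes of macrophages. UMIs of 9 of 9 macrophage genes were found in the chosen cells of each library, and their summed level was 24648, 15191, 12328 and 15926 counts per 1000000 UMIs (CPM), with Lyz2, the lysozyme gene, the most abundant in all 4 libraries. The gate itself limited microglial, T cell and endothelial genes, so low sums of these follow in part from the choice of cells. The level of 8 microglial genes summed to at most 98.4 CPM, with Tmem119, Olfml3 or Fcrls the most abundant, and Sall1 was at 0 in mIgG1 and Ctrl. Cd209a was at 0 in the chosen cells of all 4 libraries, and 9 dendritic cell genes summed to between 23.9 and 92.4 CPM. The 9 T cell genes summed to between 78.4 and 139 CPM, with Il7r the most abundant, and 12 endothelial genes to between 181 and 258 CPM. The 5 NK cell genes reached at most 4.71 CPM, 5 B cell genes at most 5.89 CPM, and 5 mural cell genes at most 31.8 CPM, while 3 mast cell and basophil genes were at 0. Neutrophil genes were the exception. Their sum over 10 genes was 625 CPM in mIgG1 and 477 in Ang2 Ab but 2943 in Ctrl and 3048 in EC-Ang2, led by S100a8 at 356, 322, 1401 and 1646 CPM in the same order. Ly6g was at 0 in the mIgG1 and Ang2 Ab cells. At least 3 UMIs of S100a8, S100a9 and Retnlg were carried by 20.9%, 20.4%, 26.4% and 42.2% of the chosen cells. In the other gated cells the share was 19.9%, 19.6%, 35.8% and 44.0%. Scrublet scores marked 0, 4, 2 and 9 of the chosen cells as doublets, and 3, 9, 11 and 8 of them shared their barcode with a cell of another library.

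Nos2-positive macrophages were 5.23% (4.34% to 6.24%) of the gated myeloid cells in mIgG1 and 10.1% (8.90% to 11.4%) in Ang2 Ab. They were 19.9% (17.6% to 22.3%) in Ctrl and 17.2% (15.6% to 18.9%) in EC-Ang2. The share was 1.93-fold as high in Ang2 Ab as in mIgG1, with intervals that did not overlap, whereas in EC-Ang2 it was 0.864-fold that of Ctrl, with intervals that overlapped. Of all cells, which the equal sort of leukocytes and endothelial cells helps to set, they made up 1.64%, 3.21%, 3.49% and 6.35%. On that denominator EC-Ang2 was 1.82-fold above Ctrl, the opposite direction from the share of gated cells. In the Ctrl library 1017 myeloid cells lay outside the gate because they carried microglial genes, against 127 in EC-Ang2.

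**Figure D1:**
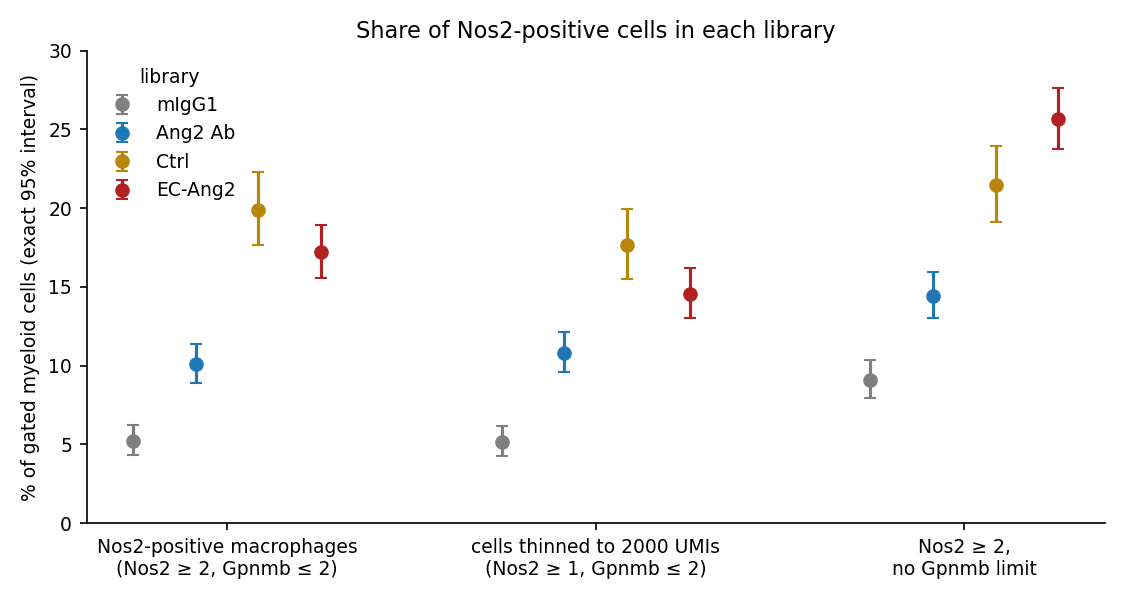
Share of gated myeloid cells (%, exact 95% binomial intervals) by library for Nos2-positive macrophages, for cells thinned to 2000 UMIs with at least 1 Nos2 UMI, and for all gated cells with at least 2 Nos2 UMIs. Ang2 Ab lies above mIgG1 under each definition, and EC-Ang2 lies below Ctrl with the limit on Gpnmb and above it without (25.6% against 21.4%).

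The limit on Gpnmb, a glycoprotein gene of lysosome-rich macrophages, bore on this comparison. Without it, gated cells with at least 2 Nos2 UMIs made up 9.10%, 14.4%, 21.4% and 25.6%. EC-Ang2 was then 1.20-fold above Ctrl and Ang2 Ab 1.59-fold above mIgG1. The limit removed 85 of 200, 104 of 344, 18 of 249 and 169 of 513 such cells. Fewest were removed in Ctrl. Of all gated cells 34.4%, 18.2%, 2.50% and 19.1% carried 3 or more Gpnmb UMIs, again fewest in Ctrl. When cells were thinned to 2000 UMIs each, 5.14%, 10.8%, 17.7% and 14.6% kept at least 1 Nos2 UMI within the limit on Gpnmb, and the folds were 2.11 for the blockade pair and 0.824 for the overexpression pair.

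Cells of other types gave a background for these shares. At least 2 Nos2 UMIs were found in 3 of 1614, 11 of 2601, 18 of 2974 and 13 of 1811 endothelial cells, or 0.186% to 0.718%, at median depths of 3868.5, 3315, 4196.5 and 5270 UMIs. No T cell held 2 Nos2 UMIs (0 of 163, 136, 115 and 229), at median depths of 3082.5 to 3952 UMIs. With 3 counts taken as the limit that a count of 0 allows, the share could be up to 1.84%, 2.21%, 2.61% and 1.31%. The shares in the myeloid gate were above this background in each of the 4 libraries, at median depths of 5531 to 7367.5 UMIs. Both background types were limited to 2 UMIs of the myeloid genes, which can lower their Nos2 shares. Thinned to 2000 UMIs, 1.14%, 3.36%, 8.70% and 5.2% of gated cells held at least 2 Nos2 UMIs within the limit on Gpnmb. In mIgG1 this is below the limit of 1.84% for T cells, which were not thinned.

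The threshold lay within a continuous range of counts. Among gated cells within the limit on Gpnmb, 140, 217, 86 and 197 held 1 Nos2 UMI and stayed outside, while 53, 105, 43 and 111 held exactly 2 and entered. Likewise 13, 20, 10 and 25 cells entered with exactly 2 Gpnmb UMIs, and 13, 18, 3 and 15 with 3 stayed outside. The median Nos2 count of the chosen cells was 5 UMIs in Ctrl and 3 in the other libraries, and the highest counts were 12, 19, 26 and 31 UMIs. Counts of 8 or more were reached by 3 (2.61%), 15 (6.25%), 74 (32.0%) and 48 cells (14.0%), so the Ctrl cells carried most Nos2 per cell. The summed Nos2 level over all gated cells was 53.9, 106, 225 and 188 CPM. In empty droplets it was 26.2, 34.3, 59.0 and 72.1 CPM, and in endothelial cells 8.15, 11.3, 15.3 and 11.8 CPM.

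**Figure D2:**
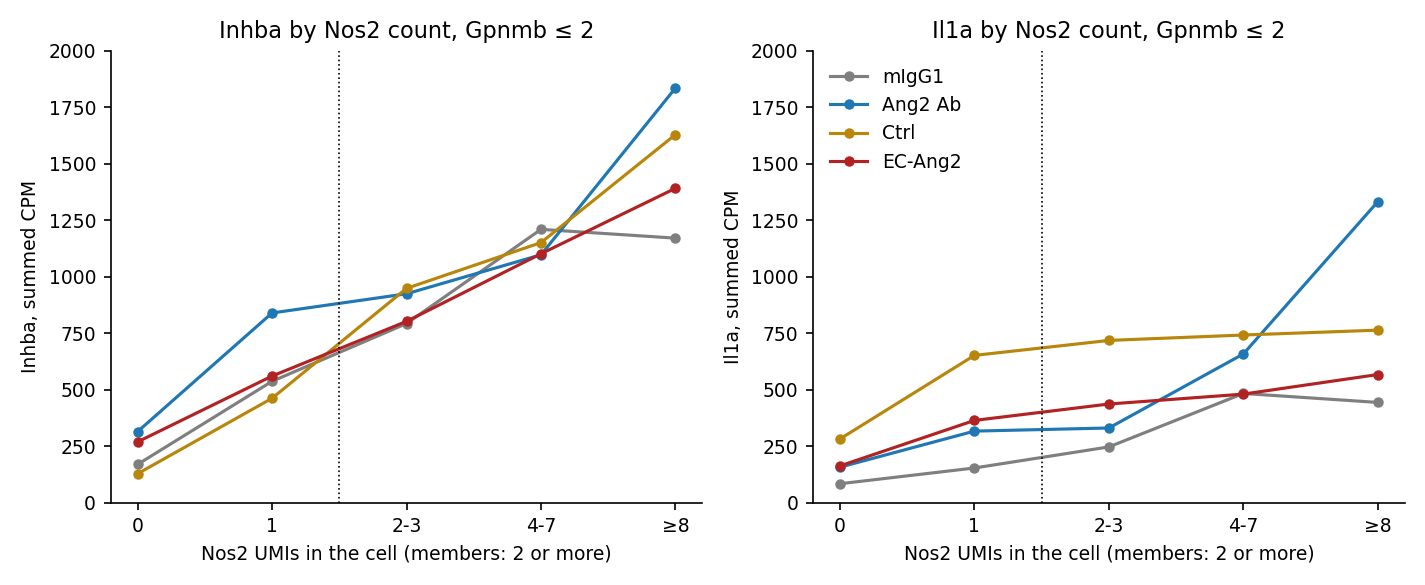
Level (summed CPM, axes from 0) of Inhba (left) and Il1a (right) in gated cells with at most 2 Gpnmb UMIs, by Nos2 UMIs in the cell, 1 line per library, with cells right of the dotted line being Nos2-positive macrophages. Inhba climbs from at most 315 CPM at 0 Nos2 UMIs to at least 1171 CPM at 8 or more in each library, and Il1a from at most 283 to at least 444 CPM.

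Inhba, the second marker of these cells, was at 939, 1057, 1276 and 1013 CPM, against 299, 483, 202 and 545 CPM in the other gated cells. At least 2 Inhba UMIs were found in 64.3%, 75.0%, 70.6% and 71.8% of Nos2-positive macrophages and in 27.4%, 37.1%, 12.8% and 34.8% of the others. The groups did not overlap over the libraries on either measure. In endothelial cells the share was 0 in mIgG1, Ang2 Ab and Ctrl and 0.110% in EC-Ang2. By Nos2 count, the Inhba level was 170, 538, 793, 1210 and 1171 CPM in mIgG1 from 0 to 8 or more Nos2 UMIs, 315, 840, 925, 1097 and 1835 in Ang2 Ab, 129, 462, 949, 1151 and 1629 in Ctrl, and 270, 561, 803, 1102 and 1392 in EC-Ang2. The order held in 3 libraries over all 5 bins and in mIgG1 up to 4 to 7 Nos2 UMIs, where the last bin held 3 cells, against 15 in that of Ang2 Ab. Il1a, the gene of interleukin-1 alpha, followed the same order. Its level was 84.5, 154, 247, 484 and 444 CPM in mIgG1 over these bins, 158, 317, 331, 659 and 1333 in Ang2 Ab, 283, 652, 718, 742 and 764 in Ctrl, and 163, 365, 437, 481 and 568 in EC-Ang2. Ass1, argininosuccinate synthase, went from 617, 874, 658 and 704 CPM at 0 Nos2 UMIs to 1062, 1300.5, 2135 and 1082 CPM at 2 to 3. Irg1 increased over all 5 bins in mIgG1 (87.5, 115, 130, 365 and 525 CPM) and Ang2 Ab (184, 248, 296, 351 and 670 CPM) but showed no steady order in Ctrl (852, 1310, 1313, 793 and 846 CPM) or EC-Ang2 (505, 477, 633, 528 and 748 CPM). The median UMI count of the cells increased over all 5 bins in Ctrl (6101 to 9494) and EC-Ang2 (6281.5 to 10183). In mIgG1 and Ang2 Ab it went from 5880.5 to 8015 and from 4959 to 8716. These 2 libraries had no increase between the bins of 1 and of 2 to 3 Nos2 UMIs. The part of depth in these orders was not tested.

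Cells with at least 2 Nos2 UMIs that the limit on Gpnmb had removed also carried Inhba. Their Inhba level was 774, 916, 1121 and 1223 CPM. Fabp5, a fatty acid-binding protein gene, was at 2044, 2132, 1045 and 2050 CPM in these cells, against 303, 390, 142 and 333 CPM in the Nos2-positive macrophages. Their median UMI counts of 8621.5 to 10547 were higher than those of the Nos2-positive macrophages.

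Across genes, 77 of 8503 measured genes that the rule did not use (0.906%) were at least 1.5-fold higher in Nos2-positive macrophages than in the other gated cells of the same library in each of the 4 libraries, and 195 (2.29%) were at least 1.5-fold lower. Genes of other cell types were also found in the other gated cells, where neutrophil genes summed to 852, 2196, 19951 and 7146 CPM, dendritic cell genes to between 143 and 277 CPM and NK cell genes to between 36.0 and 167 CPM. With cells carrying neutrophil, dendritic cell or cycling genes left out, 84 genes were higher and 162 lower, of which 64 and 104 were the same genes. Such cells had at least 3 UMIs of S100a8, S100a9 and Retnlg or of Flt3, Ccr7, Fscn1 and Kmo. Cells with UMIs of 3 or more of 12 cell cycle genes were also left out. The step kept 90 of 115, 186 of 240, 167 of 231 and 197 of 344 Nos2-positive macrophages. It is named below by the cells of other types, though those left out include Nos2-positive macrophages.

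Enzymes and transporters of the arginine route were led by Ass1 and Slc7a2. Ass1, which returns citrulline to arginine, was at 1106, 1377, 2137 and 1283 CPM in the Nos2-positive macrophages of mIgG1, Ang2 Ab, Ctrl and EC-Ang2, against 507, 802, 735 and 687 CPM in the others. Slc7a2, an arginine transporter, was at 268, 309, 262 and 221 CPM against 71.3, 136, 43.2 and 98.5 CPM. Both were higher in each library without overlap. Gch1, which starts the synthesis of the Nos2 cofactor tetrahydrobiopterin, was 0.38 to 0.92 higher on the log2 scale and did not reach 1.5-fold in each library. These 2 genes were the only ones past 1.5-fold in 4 libraries among 12 measured genes of nitric oxide and arginine metabolism, and the median log2 ratio of the list was 0.05, against -0.10 for all measured genes.

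Of 13 measured inflammatory cytokine genes, 5 were higher in each library, namely Il1a, Il1rn, Il6, Il12a and Il27, 1 was lower, Il12b, and the list median was 0.57. With cells of other types left out, 6 of 12 were higher, Il1b among them, and none was lower (median 0.83). Il1a was at 330, 525, 744 and 475 CPM against 116, 185, 326 and 215 CPM. Il1rn, the secreted antagonist of the interleukin-1 receptor, was at 934, 1493, 2142 and 1156 CPM against 350, 680, 1166 and 711 CPM. Il6 was at 21.6, 46.5, 112 and 44.7 CPM against 5.48, 14.0, 10.1 and 18.6 CPM, highest in Ctrl. Il12a, a subunit of interleukin-12, was at 45.5, 55.9, 61.8 and 34.6 CPM against 5.36, 11.9, 13.7 and 12.8 CPM. Its partner subunit gene Il12b had no UMI in the mIgG1 and Ang2 Ab cells and was at 0.524 and 0.315 CPM in Ctrl and EC-Ang2. Il1b was 0.38 to 0.94 higher on the log2 scale, short of 1.5-fold in Ctrl and EC-Ang2, and Tnf was lower in Ctrl (log2 ratio -0.38) and higher in the others.

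Other secreted or surface products were among the genes with the highest weakest ratio over the libraries. Hbegf, a ligand of the epidermal growth factor receptor, was at 25, 122, 164 and 70.5 CPM against 9.39, 37.3, 30.8 and 23.8 CPM. Edn1, the vasoconstrictor endothelin-1, was at 20.5, 53.0, 149 and 39.9 CPM against 1.45, 14.8, 21.8 and 15.3 CPM. Mmp12, a macrophage elastase, was at 349, 886, 223 and 554 CPM against 97.7, 296, 106 and 172 CPM. These 3 genes were taken by that ratio, so a higher level in every library follows from the choice. Pdcd1lg2, a ligand of the T cell checkpoint receptor PD-1, had log2 ratios of 1.05 to 1.67, and Dcstamp, a gene of macrophage fusion, of 1.58 to 2.48. Slc1a2, a glutamate transporter gene, had log2 ratios of 1.09 to 3.40 on 27 to 47 UMIs per library in the chosen cells. Kazald1 (1.47 to 2.75), Il27 (1.06 to 2.39), Asb11 (1.16 to 3.33) and Pdgfrl (1.12 to 2.85) followed, all at 40.0 CPM or less, and Pdgfrl did not reach 1.5-fold in each library once cells of other types were left out.

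**Figure D3:**
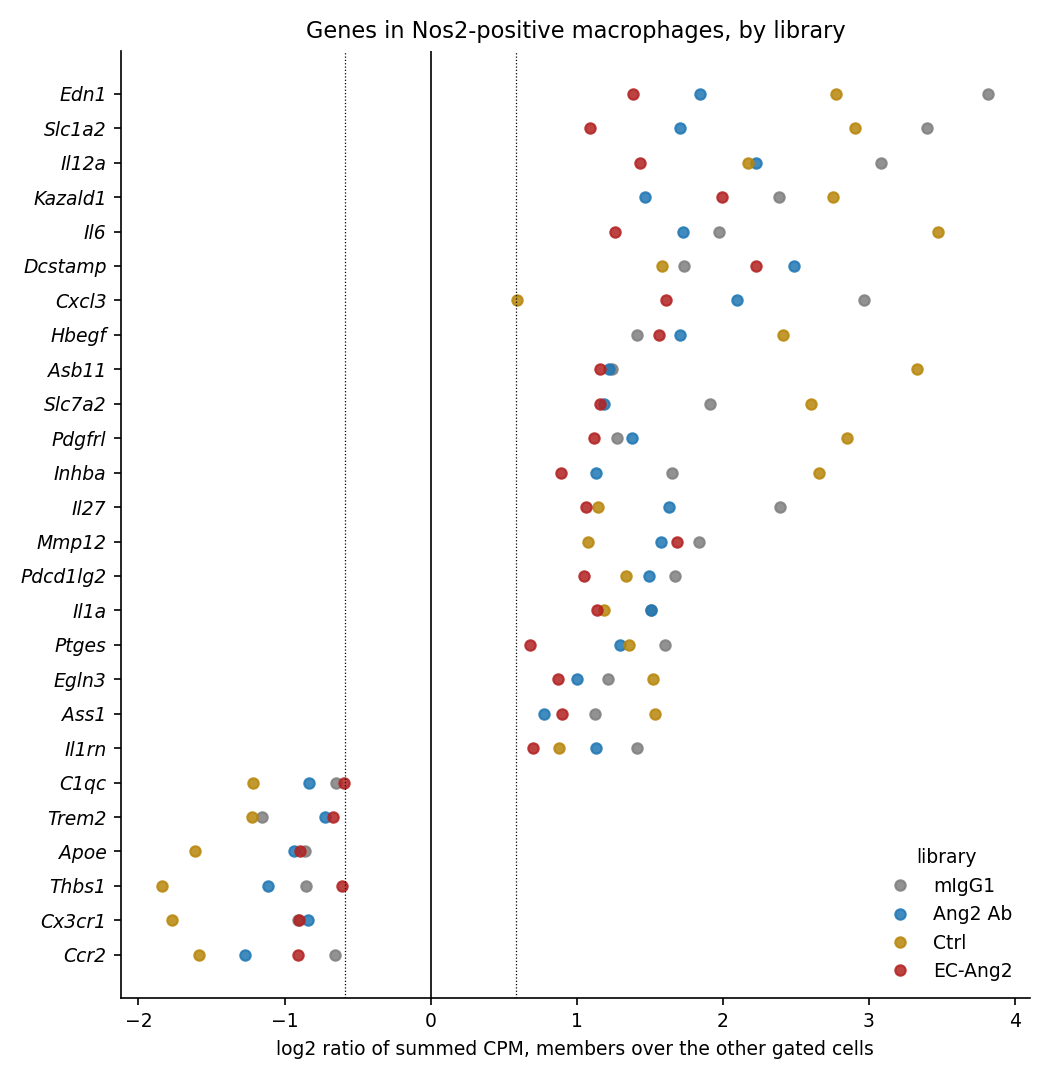
Log2 ratio of the summed CPM in Nos2-positive macrophages over the other gated cells (x axis), 1 point per library, with dotted lines at 1.5-fold. The plotted genes that are higher in these cells, among them Inhba, Il1rn, Ass1 and Hbegf, lie right of the 1.5-fold line in all 4 libraries, and Ccr2, Cx3cr1, Apoe, Trem2, Thbs1 and C1qc lie left of the line for 1.5-fold lower. Only called genes are plotted, so these positions follow from the call.

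Among 18 chemokine genes, Ccl24 and Cxcl3 were higher in each library and Ccl8 and Ccl22 lower, with a list median of 0.13. Without cells of other types, Ccl24, Cxcl2, Cxcl3 and Cxcl9 were higher and none was lower. Cxcl3, a ligand of the neutrophil receptor Cxcr2, was at 220, 474, 164 and 372 CPM against 28.2, 111, 109 and 122 CPM, and Ctrl was close to the 1.5-fold limit. Among 16 NF-kB target and prostaglandin genes, Clec4e, Ptges and Ptgs2 were higher and none lower. Ptgs2 and Ptges encode consecutive enzymes of prostaglandin E2 synthesis, and had log2 ratios of 0.63 to 1.69 and 0.68 to 1.60. Of 15 interferon-gamma response genes and 11 type I interferon response genes none was past 1.5-fold in the same direction in 4 libraries, with medians of 0.11 and -0.08. All 24 glycolysis and hypoxia genes had a mean log2 ratio above 0 and a median of 0.58, but only Egln3, a prolyl hydroxylase induced by hypoxia, was past 1.5-fold in each library, and the lactate dehydrogenase gene Ldha had ratios of 0.39 to 0.99. Slc7a11, the cystine importer, and Sod2, the mitochondrial superoxide dismutase, were higher among 16 antioxidant genes. Irg1 (Acod1), which makes itaconate from a citric acid cycle intermediate, had log2 ratios of 1.07, 0.85, 0.15 and 0.42 and reached 1.5-fold in each library only after cells of other types were left out. No NADPH oxidase gene of 6 and no major histocompatibility complex (MHC) class II gene of 7 was past 1.5-fold in 4 libraries.

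Of 13 monocyte genes, Ccr2, Thbs1 and Ifitm6 were lower in each library and none higher, with a median of -0.57. Ccr2, the receptor that brings monocytes into inflamed tissue, was at 107, 83.6, 115 and 125 CPM against 168, 202, 345 and 235 CPM. Ly6c2, a surface protein gene of monocytes newly arrived from blood, was instead at 1539, 1599, 2361 and 2996 CPM against 1170, 1549, 1450 and 2819 CPM. At least 3 UMIs of Ly6c2 and Plac8 were found in 77.4%, 72.5%, 93.1% and 90.7% of the chosen cells and in 75.2%, 77.8%, 80% and 86.6% of the others. Of 9 genes of C1q-expressing and resident macrophages, C1qc, Cd72, Cx3cr1 and Ms4a7 were lower and none higher, with a median of -0.91. Of 17 lipid handling genes, Apoe, Apoc1, Trem2 and Fabp4 were lower and none higher, with a median of -0.37. Apoe, the lipid carrier apolipoprotein E, was at 14450, 4339, 1583 and 3241 CPM against 26212, 8293, 4852 and 6019.5 CPM. Trem2, a lipid-sensing receptor, had log2 ratios of -1.22 to -0.67. These calls for Ccr2, Thbs1, C1qc, Cx3cr1, Apoe and Trem2 held when cells of other types were left out. Cells with 3 or more Gpnmb UMIs were, by the rule, among the other gated cells. In mIgG1 their Apoe level was 32984 CPM. Among the others with fewer Gpnmb UMIs, it was at 19228 CPM in cells with Ly6c2 and Plac8 (at least 3 UMIs), short of 1.5-fold. The remaining cells were at 25165 CPM. In Ang2 Ab, Ctrl and EC-Ang2 the cells with Ly6c2 and Plac8 were at 7420, 4124 and 5903 CPM, past 1.5-fold. The Apoe call in mIgG1 thus depends on keeping the cells with Gpnmb in the comparison. The part of the cells with Gpnmb in the lower Apoc1, Trem2 and Fabp4 was not tested.

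The 10 genes with the lowest ratios were Plet1, Gzma, Klrd1, Kmo, Serpinb6b, Fgd2, P2ry10, Fscn1, Bcl2l14 and Clec2i, which had between 0 and 36 UMIs in the chosen cells of any library. They include markers of dendritic cells (Fscn1, Kmo) and of NK cells (Gzma, Klrd1). Gzma was at 0, 0.589, 0.524 and 0.629 CPM against 23.3, 22.5, 63.7 and 38.6 CPM. With cells of other types left out Gzma and Klrd1 stayed lower (no NK cell gene was used in that step), whereas the mean log2 ratio of Fscn1 turned from -3.38 to 0.18. The lists of alternative activation (2 higher and 2 lower of 10), activin and TGF-beta genes (Inhba alone higher of 8), growth factors (Hbegf alone of 5), costimulation and checkpoint ligands (Pdcd1lg2 higher and Icosl lower of 7), cathepsins (Lgmn lower of 9), itaconate and citric acid cycle (Idh2 lower of 13) and angiopoietins with their receptors and integrins (Itgb5 lower of 9) gave few calls. Of 12 dissociation response genes and 6 measured cell cycle genes none was past 1.5-fold in 4 libraries. The study's own list of macrophage genes, which it chose on these libraries and which is therefore not independent, had 1 lower gene, Ms4a7, of 13.

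The gated cells were also divided into 4 exclusive classes, to see which of them stood closest to the Nos2-positive macrophages. The other classes were 1599 cells with at least 3 Gpnmb UMIs, 4225 cells with neither mark but at least 3 UMIs of Ly6c2 and Plac8, and the 987 remaining cells. Of the cells with Gpnmb, 85 of 756, 104 of 433, 18 of 29 and 169 of 381 also held at least 2 Nos2 UMIs. Inhba was at 399, 714, 973 and 1014 CPM in the cells with Gpnmb, which in EC-Ang2 equalled the Nos2-positive macrophages. It was at 182, 392, 168 and 326 CPM in the cells with Ly6c2 and Plac8 and at 332, 395, 117 and 229 CPM in the remaining cells. Ass1, Il1a and Il1rn were highest in the Nos2-positive macrophages of each library among the 4 classes. Ass1 was at 679, 984, 785 and 795 CPM in the cells with Ly6c2 and Plac8 and at 337, 506, 1225 and 535 CPM in those with Gpnmb. Cxcl3 was highest in the Nos2-positive macrophages except in Ctrl, where the 29 cells with Gpnmb were at 331 CPM. Ccr2 was lower in Nos2-positive macrophages (83.6 to 125 CPM) than in cells with Ly6c2 and Plac8 (301 to 403 CPM) and higher than in cells with Gpnmb (42.8 to 68.3 CPM).

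**Figure D4:**
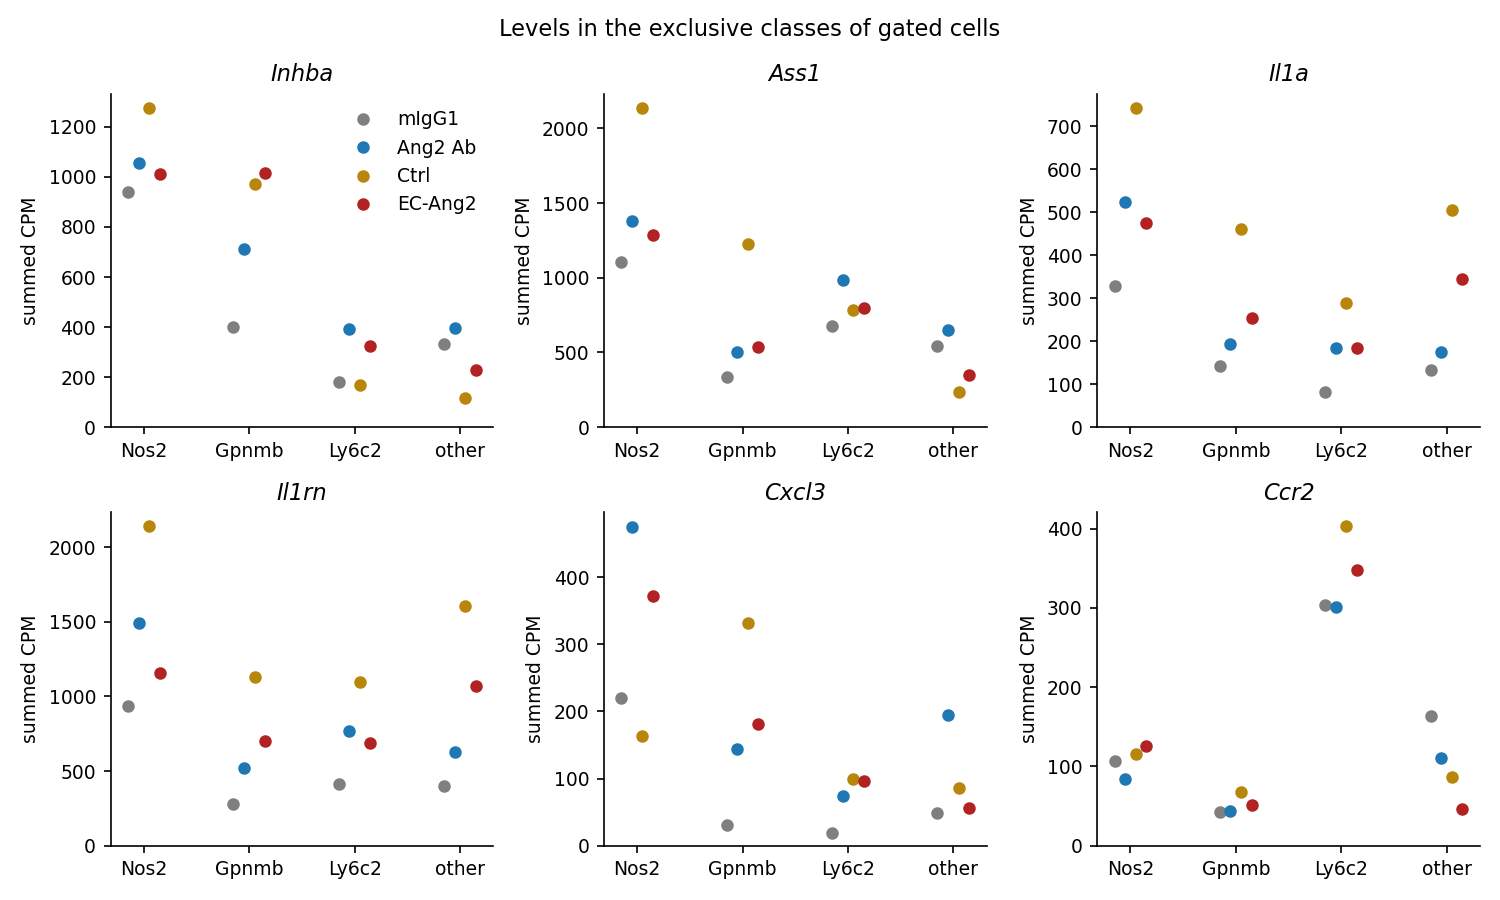
Summed level (CPM, axes from 0) of 6 genes in 4 exclusive classes of gated cells, 1 point per library (Nos2, Nos2-positive macrophages; Gpnmb, at least 3 UMIs; Ly6c2, at least 3 UMIs of Ly6c2 and Plac8; other, the remainder). Inhba is at 939 to 1276 CPM in Nos2-positive macrophages and at most 395 CPM in the Ly6c2 and other classes.

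Shares of cells positive for other products differed between libraries. At least 2 Irg1 UMIs were found in 32.2%, 42.9%, 77.1% and 68.6% of Nos2-positive macrophages and in 15.1%, 21.5%, 42.6% and 42.6% of the other gated cells. At least 10 UMIs of the MHC class II genes H2-Aa, H2-Ab1, H2-Eb1 and Cd74 were found in 95.7%, 85.8%, 81.0% and 72.4% of the chosen cells and in 89.3%, 76.3%, 59.4% and 58.5% of the others. The cuts in UMIs of this paragraph were not scaled for depth, and the chosen cells were deeper in each library. Scaled for depth, Cd74 was at 20518, 15567, 14061 and 8562 CPM against 18434, 14477, 16132 and 9383 CPM, so lower in Ctrl and EC-Ang2. The median log2 ratio of the 7 MHC class II genes was -0.09. At least 3 UMIs of C1qa, C1qb and C1qc were found in 74.8%, 57.1%, 50.6% and 36.9%, against 75.8%, 55.9%, 46.5% and 35.1%. At least 2 Il1b UMIs were found in 90.4%, 90.8%, 96.5% and 95.9%, against 79.7%, 83.1%, 81.8% and 85.3%. Between 0% and 1.16% had UMIs of 3 or more of 12 cell cycle genes.

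Between Ang2 Ab and mIgG1, 328 of 4398 genes measured in Nos2-positive macrophages (7.46%) were at least 1.5-fold higher in Ang2 Ab and 189 (4.3%) at least 1.5-fold lower. Each count rests on 115 and 240 cells. Leaving out cells carrying neutrophil, dendritic cell or cycling genes kept 90 and 186 of them. In these 288 genes were higher and 172 lower, of which 187 and 94 were the same genes. Among cells with at least 3 Nos2 UMIs, 262 were higher and 164 lower, with 126 and 63 in common. Of the 4398 measured genes, 207 were higher and 44 lower in the other gated cells, and the overlap with the calls above was not counted. Type I interferon response genes were higher in 9 of 9 measured, with a median log2 ratio of 1.20 (1.64 in the other gated cells). Isg15, a ubiquitin-like protein of this response, was at 785 CPM in mIgG1 and 1297 in Ang2 Ab (log2 ratio 0.72, 0.60 to 0.85), and Rsad2, the antiviral protein viperin, at 78.4 and 232 CPM (1.56, 1.19 to 1.95). Interferon-gamma response genes had a median of -0.03 in Nos2-positive macrophages and of 0.64 in the other gated cells, where 8 of 14 were higher against 1 of 14. Cxcl9, a chemokine of that response, was at 496 and 237 CPM (-1.06, -1.26 to -0.86), against a log2 ratio of 0.01 in the other cells.

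Chemokines were higher in 9 of 15 and lower in 2 (median 0.92), and cytokines higher in 6 of 9 (median 0.67), against 0.03 for all measured genes. In the other gated cells 11 of these chemokines were higher and none lower (median 1.35), and 6 of the cytokines were higher (0.93). Of 10 dissociation response genes, Atf3 and Hspa1a were higher in Ang2 Ab, and their part in these differences was not tested. Ccl17, a ligand of the T cell receptor Ccr4, was at 42.1 CPM in mIgG1 and 696 in Ang2 Ab (log2 ratio 4.05, 3.58 to 4.56). Ccl24, an eosinophil attractant, was at 65.9 and 916 CPM (3.80, 3.42 to 4.20), and in the other gated cells at 5.29 and 315 CPM. Hbegf was at 25 and 122 CPM (2.28, 1.65 to 2.99). The 8 highest genes further held Csf1, Slfn4, Scgb3a1, Gm15056 and Socs1, with log2 ratios of 1.99 to 2.96, of which Csf1, Slfn4 and Socs1 had 6 or fewer UMIs in mIgG1. Scgb3a1, which the study used as a marker of endothelial cells, was at 15.9 and 81.8 CPM, and at 16.3 and 94.3 CPM in the other gated cells, and the part of endothelial RNA in this difference was not tested. Il6 was at 21.6 and 46.5 CPM (1.11, 0.37 to 1.91) and Tnf at 27.3 and 75.9 CPM (1.48, 0.84 to 2.17).

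Genes lower in Ang2 Ab were led by Saa3, an acute-phase protein, at 1589 CPM in mIgG1 and 312 in Ang2 Ab (log2 ratio -2.35, -2.50 to -2.20). Apoe was at 14450 and 4339 CPM (-1.74, -1.78 to -1.69), with a ratio of -1.66 in the other gated cells. Mmp8, Hes1, Fpr1, Sash1, Hp and Wfdc21 had ratios of -2.15 to -1.39. In the other gated cells the ratios of Mmp8, Sash1 and Hp were -0.42, -0.59 and -0.82, those of Hes1 and Fpr1 were -0.02 (-0.20 to 0.15) and 0.16 (-0.12 to 0.45), and Wfdc21 was higher (1.49). Neutrophils also express Mmp8 and Fpr1, and 2 of 4 measured neutrophil marker genes, Mmp8 and S100a9, were lower in Ang2 Ab. With cells carrying neutrophil, dendritic cell or cycling genes left out, the ratio was -2.19 for Mmp8 and -0.83 for Fpr1. C1q and resident macrophage genes were lower in 4 of 7 (median -0.73) and none was higher. Of 13 genes of the study's own macrophage list, chosen on these libraries, Ecm1 and Saa3 were lower and none higher (median -0.30). In the other gated cells 5 of the 13 were lower and none higher (-0.52). Inhba was at 939 and 1057 CPM (0.17, 0.05 to 0.29), and no gene of 10 in nitric oxide and arginine metabolism was past 1.5-fold. In the other gated cells Inhba was at 299 and 483 CPM (0.69, 0.64 to 0.74), and 3 of these 10 genes were higher. Nos2, which the rule used, was at 439 and 528 CPM.

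**Figure D5:**
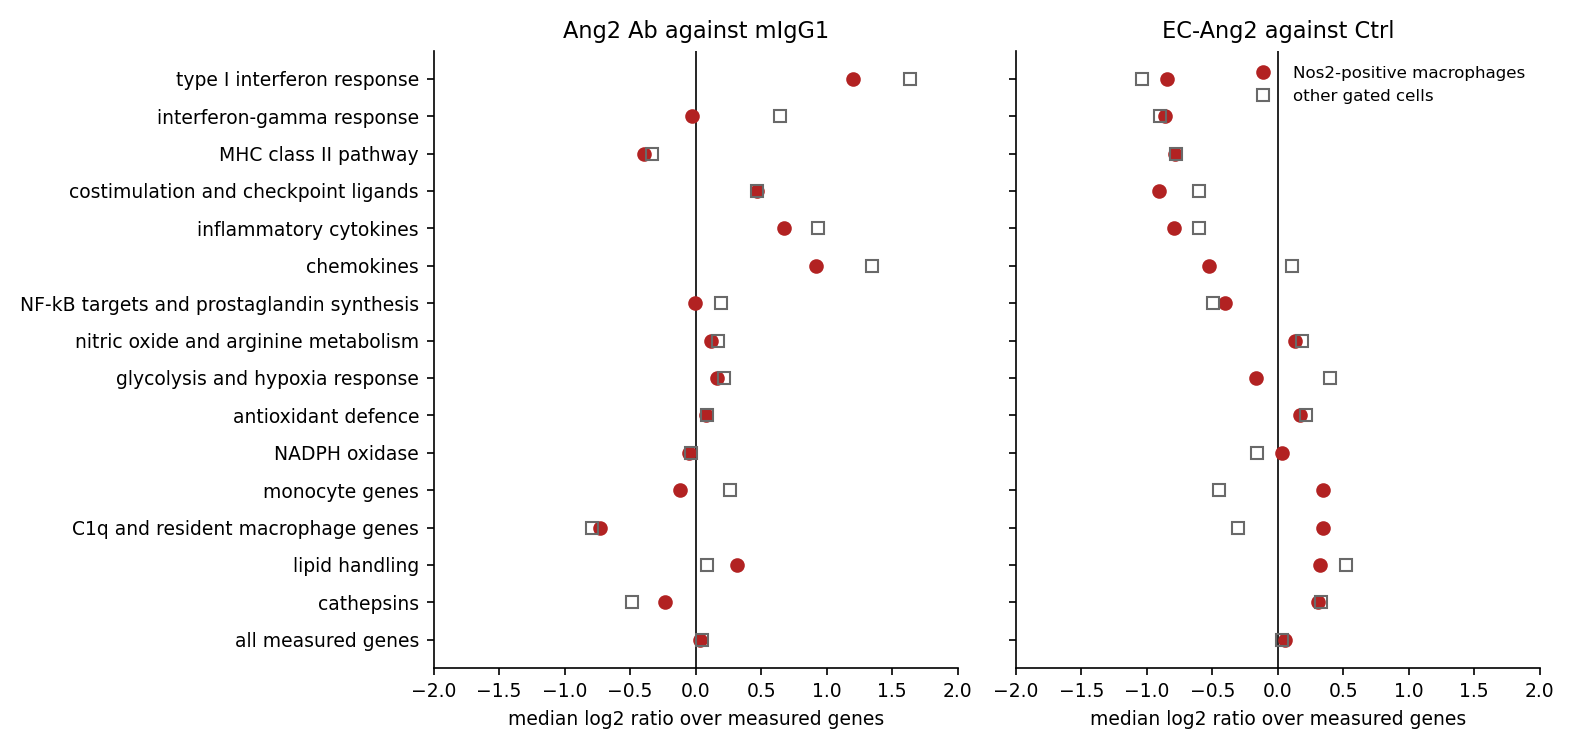
Median log2 ratio (x axis) over the measured genes of each list in Nos2-positive macrophages (filled circles) and in the other gated cells (open squares), for Ang2 Ab against mIgG1 (left) and EC-Ang2 against Ctrl (right). Type I interferon genes lie at 1.20 on the left and -0.85 on the right, and interferon-gamma genes at -0.03 and -0.86.

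Between EC-Ang2 and Ctrl, 530 of 5607 measured genes (9.45%) were at least 1.5-fold higher in the Nos2-positive macrophages of EC-Ang2 and 373 (6.65%) at least 1.5-fold lower, on 344 and 231 cells. The share of these cells with neutrophil genes was 42.2% in EC-Ang2 and 26.4% in Ctrl. Leaving out such cells, as well as those carrying dendritic cell or cycling genes, kept 197 cells in EC-Ang2 and 167 in Ctrl. In these 361 genes were higher and 370 lower, of which 237 and 261 were the same genes. Type I interferon response genes were lower in 11 of 11 (median log2 ratio -0.85) and interferon-gamma response genes in 12 of 14 (-0.86), with none higher. In the other gated cells the medians were -1.03 and -0.90. Of the 5607 measured genes, 337 were higher and 307 lower in the other gated cells, and the overlap was not counted. Isg15 was at 2505 CPM in Ctrl and 1282 in EC-Ang2 (-0.97, -1.03 to -0.91), and Gbp2, a guanylate-binding protein, at 1348 and 655 CPM (-1.04, -1.13 to -0.96).

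MHC class II genes were lower in EC-Ang2 in 6 of 6 (median -0.79), as they were in the other gated cells (-0.78). H2-Ab1, an MHC class II chain, was at 5706 and 2960.3 CPM (-0.95, -0.99 to -0.91). Costimulation and checkpoint ligands were lower in 4 of 6, with Cd274, the ligand PD-L1, at 452 and 210 CPM (-1.11, -1.25 to -0.96). Cytokines were lower in 8 of 11 (median -0.79). In the other gated cells 7 were lower and 1 higher (-0.60), against 307 lower and 337 higher of all 5607 measured genes. Of 11 dissociation response genes, Atf3 and Hspa1a were lower in EC-Ang2 and Fosb higher, and their part in these differences was not tested. Il6 was at 112 and 44.7 CPM (-1.33, -1.64 to -1.01) in Nos2-positive macrophages, whereas its ratio in the other gated cells was 0.88. Chemokines went both ways, 4 of 15 higher and 7 lower. Ccl2, the ligand of Ccr2, was at 611 and 275 CPM (-1.15, -1.28 to -1.02), against a ratio of 0.11 in the other cells, and Cxcl3 at 164 and 372 CPM (1.18, 1.00 to 1.37).

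The highest gene in EC-Ang2 was Chil3, a chitinase-like protein of monocytes and macrophages, at 889 CPM in Ctrl and 5403 in EC-Ang2 (log2 ratio 2.60, 2.53 to 2.68), with a ratio of 2.72 in the other gated cells. Ms4a7, Mmp8, Cd101, Thbd, Fpr1, Adamtsl4 and Mbtps1 followed with ratios of 1.72 to 2.53. Neutrophils also express Mmp8 and Fpr1, whose ratios were 2.12 and 1.92 with neutrophil gene-positive cells left out. The lowest were AC125149.3, Mbp, Qpct, Ch25h, A530040E14Rik, H2-DMb2, Edn1 and Adgre4, with ratios of -2.74 to -1.89. Mbp, myelin basic protein, which is a gene of oligodendrocytes, was at 88.5 and 17.3 CPM and also lower in the other gated cells (-1.64). Edn1 was at 149 and 39.9 CPM (-1.90, -2.21 to -1.59), against a ratio of -0.51 in the others.

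Genes of lipid handling were higher in EC-Ang2 in 5 of 12 and lower in 1, and 9 of 13 genes of the study's own macrophage list, chosen on these libraries, were higher (median 0.94). In the other gated cells 13 of 13 were higher (1.02), against 337 of all 5607 measured genes. Apoe was at 1583 and 3241 CPM (log2 ratio 1.03, 0.97 to 1.09) and Fabp5 at 142 and 333 CPM (1.23, 1.03 to 1.42). Inhba was at 1276 and 1013 CPM (-0.33, -0.41 to -0.26) in Nos2-positive macrophages, while in the other gated cells its ratio was 1.43. The other gated cells differed in make-up, with 29 cells of 3 or more Gpnmb UMIs in Ctrl and 381 in EC-Ang2. Inhba was at 973 and 1014 CPM in these cells. In the cells with Ly6c2 and Plac8 it was at 168 and 326 CPM, and in the remaining cells at 117 and 229 CPM. The part of make-up in the ratio was not tested. Ass1 at 2137 and 1283 CPM (-0.74, -0.80 to -0.67) and Gch1 at 272 and 177 CPM (-0.62, -0.79 to -0.44) were the 2 lower genes of 10 in nitric oxide and arginine metabolism. Nos2, which the rule used, was at 789 and 489 CPM.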

How the data were processed

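The authors deposited UMI counts per gene and barcode for each library, not normalized and with empty droplets included. Per the labels and the study's methods libraries were 10x Genomics Chromium 3′ libraries of v2 chemistry, and the submitters' processing notes name Cell Ranger 2.1.1, Seurat 2.3.4 and mm10. Symbols shared by several gene identifiers were summed. Nos2-positive macrophages were chosen by the stated rule. The rule, the gene lists and the comparisons were chosen with earlier results of these data known.

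The level of a gene (CPM) was its summed UMIs, divided by all UMIs of the same group of cells and library and multiplied by 1000000. A gene was measured with at least 200 UMIs over all gated cells, or in a pair at least 50 together with UMIs in at least 10% of the cells of 1 library. A gene was called when 1.5-fold apart, in each of the 4 libraries where libraries were compared within themselves. A count of 0 was set at 3, and a gene got no fold where both counts were 3 or fewer or where setting a 0 at 3 would turn its direction (26 measured genes against the other gated cells). Intervals are exact at 95%. For thinning, 2000 UMIs were drawn from each cell. No test was run, since each condition has 1 library. Genes named are those with the 15 highest and 10 lowest weakest ratios against the other gated cells, the 8 highest and 8 lowest in each pair, the genes of the rule and examples of the lists. Some genes, and the comparisons that need them, are not reported here.

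Background endothelial cells had at least 10 UMIs of the 4 endothelial genes and at most 2 of the myeloid genes. Background T cells had at least 3 UMIs of the T cell genes, at most 2 of the endothelial genes and at most 2 of the myeloid genes. Empty droplets had 10 to 100 UMIs. Doublets were marked by the highest Scrublet scores at 0.8% per 1000 barcodes. The calls were also run on simulated data, and no outcome of that run is reported here. Python 3.11.15, NumPy 2.4.6, SciPy 1.17.1, pandas 2.3.3 and scanpy 1.11.5 were used. Alternatives were a Nos2 threshold of 3, thinned cells, cells of 5000 to 15000 UMIs, removal of doublets, of shared barcodes and of other cell types, other reference cells, the mean of each cell's CPM, a 2-fold limit, doubled minimums, each library left out and, added after seeing the data, no limit on Gpnmb. Sequences are from RefSeq on GRCm38.p6. The table used held promoters of Inhba and Acod1, and Irg1 of the files was matched to Acod1 by its gene identifier.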

Additional observations from a re-analysis of the deposited data

Results flagged for a closer look

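Nos2 transcripts also appeared in cells that the comparisons did not use. Among myeloid cells kept out of the gate by their microglial genes, at least 2 Nos2 UMIs were found in 18 of 326 in mIgG1 (5.52%), 28 of 398 in Ang2 Ab (7.04%), 58 of 1017 in Ctrl (5.70%, 4.36% to 7.31%) and 13 of 127 in EC-Ang2 (10.2%, 5.56% to 16.9%), so that EC-Ang2 was above its control library. The intervals overlapped. The summed Nos2 level of these cells had the opposite order, 67.6 CPM (62.0 to 73.5) in Ctrl and 37.0 CPM (27.6 to 48.5) in EC-Ang2, and their median depths were 6059 and 9863 UMIs. Among myeloid barcodes of at least 500 UMIs but below the minimum of 2000, the counts of the rule were met by 3 of 319 in mIgG1 (0.940%), 11 of 792 in Ang2 Ab (1.39%), 8 of 558 in Ctrl (1.43%, 0.621% to 2.81%) and 21 of 438 in EC-Ang2 (4.79%, 2.99% to 7.24%). The median depth of these barcodes was 1241 UMIs in Ctrl and 1564.5 in EC-Ang2. Neither difference was tested, since each condition has 1 library.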

How the results depend on the processing

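No paired analysis was possible because each condition has 1 library. The chosen cells were set against the other gated cells within each library, without a test, since Nos2 in the same cells chose them. Removing doublets or shared barcodes, or averaging each cell's CPM, left shares within their intervals and counts within 1.5 times. With at least 3 Nos2 UMIs, shares were 2.82%, 5.67%, 16.2% and 11.7% in mIgG1, Ang2 Ab, Ctrl and EC-Ang2, and the log2 ratio of EC-Ang2 over Ctrl was -0.48 (-0.21 as reported). In cells of 5000 to 15000 UMIs, shares of Ang2 Ab, Ctrl and EC-Ang2 were 12.1%, 25.1% and 19.4%. Without other cell types, the Ctrl share was 23.8% and the mean log2 ratio of Fscn1 reversed to 0.18. Without the limit on Gpnmb, added after seeing the data, shares were 9.10%, 14.4% and 25.6% in mIgG1, Ang2 Ab and EC-Ang2, and the log2 ratio of EC-Ang2 over Ctrl reversed to 0.26. Thinned and chosen by 1 Nos2 UMI, the EC-Ang2 share was 14.6%. Against cells without Nos2 and with at most 2 Gpnmb UMIs, 167 genes were higher and 336 lower. At 2-fold, 17 and 58 genes were called against the other gated cells, 71 and 27 for blockade, and 114 and 97 for overexpression. Doubled minimums gave 147 and 74 genes for blockade and 276 higher for overexpression. Leaving out each library in turn gave 87 to 128 higher and 233 to 314 lower genes against the other gated cells, highest without EC-Ang2 (128) and without mIgG1 (314). With fewer libraries more genes meet the call. Except where a value or the construction of an alternative shows it, the cause was not tested. The small number of cells limits mIgG1 (115 cells), and differences between conditions carry no error between mice.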
